A study of Homo sapiens with 35 samples.

Results

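The 51 genes described here encode proteins that carry a cell through G2 and mitosis: the cyclin B and CDK1 core, mitotic kinases, the spindle checkpoint, the anaphase-promoting machinery, kinetochore, spindle and cytokinesis proteins, and the condensins. They were listed by function, and each gene was read from its brightest probe set among those annotated to exactly 1 gene symbol. All 51 were measured, out of 11940 genes on the array. The choice of probe set used the mean brightness over all arrays and no difference between groups. The list of genes itself was drawn up with earlier results of these data known.

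The cells were BE(2)-C, a clonal human neuroblastoma cell line, so every result concerns 1 line in culture. They received ATRA (all-trans retinoic acid, 5 µM) together with VPA (valproic acid, a histone deacetylase inhibitor, 1 mM), ATRA alone, VPA alone, or DMSO, the vehicle, and were collected at 6, 24 or 72 h. RNA was hybridised to 35 Affymetrix arrays, 3 in each of the 12 groups except DMSO at 72 h, which had 2. The labels call the replicates triplicates without naming separate days or passages, so each p-value measures the spread between these samples, which may be technical.

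Most of these genes are transcribed late in the cell cycle. In resting and G1 cells the DREAM complex, built on the MuvB core, holds them down through a promoter element called the CHR (cell cycle genes homology region), while in dividing cells the same core joins MYBL2 and then FOXM1 and activates them. The factor NF-Y binds CCAAT boxes near many of these elements. Cyclin B with CDK1 then drives entry into mitosis, the spindle checkpoint delays anaphase until chromosomes are attached, and the anaphase-promoting complex with CDC20 ends mitosis by marking securin and cyclin B for destruction. Retinoic acid is known to make neuroblastoma cells differentiate and leave the cycle.

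Promoter sequences are shown first for 6 of the genes whose values are described below, because the letters these genes share near their start sites are the feature that the choice of genes did not use. RefSeq promoters (GRCh38.p14) were matched for 43 of the 51 genes; FOXM1, BIRC5, TPX2, UBE2C, AURKA, BUB3, RACGAP1 and TTK are named without one. Each line gives the 150 bases that end just before the annotated start site, 5′ to 3′ on the gene's strand. Capitals mark CHR letters (TTTGAA or TTCGAA, read on both strands, so that TTCAAA is also a match) and CCAAT boxes (CCAAT, or ATTGG on the other strand).
CDC20, plus strand of chr1:43358831-43358980: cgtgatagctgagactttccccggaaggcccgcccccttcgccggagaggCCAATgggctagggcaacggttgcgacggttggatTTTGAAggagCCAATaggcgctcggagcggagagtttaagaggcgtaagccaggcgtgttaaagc
PLK1, plus strand of chr16:23678739-23678888: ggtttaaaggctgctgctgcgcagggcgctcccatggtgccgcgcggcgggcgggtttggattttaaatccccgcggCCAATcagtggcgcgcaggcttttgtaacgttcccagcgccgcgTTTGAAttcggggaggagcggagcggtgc
MKI67, minus strand of chr10:128126424-128126573: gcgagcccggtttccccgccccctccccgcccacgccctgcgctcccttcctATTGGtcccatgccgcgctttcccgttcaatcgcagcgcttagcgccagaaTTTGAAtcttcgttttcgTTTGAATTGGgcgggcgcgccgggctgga
KIF11, plus strand of chr10:92592980-92593129: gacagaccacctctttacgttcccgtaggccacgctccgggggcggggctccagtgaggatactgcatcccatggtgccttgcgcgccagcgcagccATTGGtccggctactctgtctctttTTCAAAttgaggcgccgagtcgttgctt
NCAPG, plus strand of chr4:17810829-17810978: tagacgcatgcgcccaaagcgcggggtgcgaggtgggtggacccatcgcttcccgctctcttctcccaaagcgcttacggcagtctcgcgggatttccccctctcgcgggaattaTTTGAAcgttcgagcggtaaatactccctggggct
CCNB1, plus strand of chr5:69167000-69167149: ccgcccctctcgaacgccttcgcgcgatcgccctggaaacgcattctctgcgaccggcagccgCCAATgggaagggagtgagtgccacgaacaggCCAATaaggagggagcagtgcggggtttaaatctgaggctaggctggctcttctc
CDC20, PLK1, MKI67 and KIF11 carried both motifs here, and in MKI67 a CHR and an inverted CCAAT box shared a base. NCAPG carried a CHR and no CCAAT box, and CCNB1 carried CCAAT boxes and neither TTTGAA nor TTCGAA on either strand. Other spellings of the CHR were not searched, so a gene without these letters may still carry a CHR.

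In windows of 300 bases, 250 before to 50 after the start, 31 of the 43 promoters (72.1%) held CHR letters, against 12.4% of 9593 promoters of genes on the array and 16.6% of 27305 promoters in all. CCAAT boxes stood in 31 of the 43 promoters (72.1%), against 37.5% of promoters of array genes and 35.7% of all promoters. Both motifs stood in 24 promoters (55.8%), against 5.35% of those of array genes. CHR letters within 60 bases before to 50 bases after the start stood in 26 of the 43 (60.5%), against 3.63% of those of array genes. Of 65 promoters of other G2 and mitosis genes, 36 (55.4%) held CHR letters, 39 a CCAAT box, 25 (38.5%) both, and 28 (43.1%) CHR letters near the start, so that list shared these letters. Of 38 promoters of DNA replication genes, 7.89% held CHR letters and 52.6% a CCAAT box. A match describes the letters only, and absent letters say nothing about a CHR of another spelling or a factor elsewhere. The 31 genes with CHR letters and the 12 without fell by close amounts, with a median log2 change of -0.76 and -0.80 with ATRA plus VPA at 72 h, and -0.61 in each class with ATRA at 72 h. CCNA2, CCNB1, CDC25B, CDC25C, MYBL2, NEK2, AURKB, PTTG1, CENPE, KIF2C, KIF20A and NCAPH were the 12 without them.

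The values are linear intensities, and comparisons use log2 of the intensity plus 1. The lowest value of any of the 51 genes was 81.6 (NCAPH), while the quartile below which the dimmest probe sets of each array fell ranged from 20.8 to 23.6. Of 6 noradrenergic neuroblastoma markers measured, PHOX2A, GATA3, ISL1 and DBH lay between 549 and 5330 on every array and TH between 73.7 and 295, whereas HAND2 (22.7 to 43.6) stayed near the lower quartile, as did the leukocyte gene PTPRC (14.8 to 24.9). Of 6 mesenchymal markers, VIM (3220 to 6990), FN1 (138 to 4070) and SNAI2 (171 to 311) stood far above that quartile on every array. CD44 (30 to 40.5) stayed little above it, COL1A1 ranged from 17.3 to 151, and PRRX1 (14.3 to 20.7) stayed below it. The glial genes SOX10 (33.1 to 52) and S100B (20.1 to 29.5) and the leukocyte genes CD3E (15.4 to 38.8) and CD79A (26.8 to 44) also lay near or little above it. The first DMSO array at 24 h stood apart, with a residual SD of 0.234 (0.083 to 0.171 on the other arrays) and the lowest median intensity of all arrays, 43.63 of a range up to 58.9. For results at 24 h that this array moves, the values without it stand beside them. The 3′/5′ ratio of control probe sets, a sign of RNA or labelling quality, also moved with the groups: its log2 mean was 1.36 with ATRA plus VPA, 1.82 with ATRA, 1.09 with VPA and 1.06 with DMSO at 72 h. Its part in the results was tested only as a covariate in the fit, and those values stand where they change a result.

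Averaged over the 51 genes, the level was lowest in cells with ATRA plus VPA at 72 h. On the 3 ATRA plus VPA arrays at 72 h the mean log2 level was 9.44, 9.47 and 9.52, on the ATRA arrays 9.62, 9.58 and 9.74, on the VPA arrays 10.11, 10.08 and 10.14, against 10.29 and 10.30 on the DMSO arrays. Neither treatment with ATRA overlapped with VPA or DMSO. At 24 h the arrays lay at 10.13, 10.17 and 10.15 with ATRA plus VPA, at 9.89, 9.88 and 9.93 with ATRA and at 10.40, 10.39 and 10.35 with VPA, against 10.14, 10.31 and 10.39 with DMSO. ATRA alone therefore lay below the combination at 24 h and above it at 72 h. The summed marker levels also differed between the groups, but in other orders. Each sum is of linear intensities, so bright genes such as VIM weigh most in it. At 72 h the summed level of the 6 mesenchymal markers was 10600 to 11100 with ATRA plus VPA, 5710 to 6690 with ATRA and 7180 to 7740 with VPA, against 4870 to 4920 with DMSO. That of the 6 noradrenergic markers was 6860 to 7540 with ATRA plus VPA, 5990 to 6320 with ATRA and 8210 to 9800 with VPA, against 8180 to 8410 with DMSO. The part of these markers in the results was not tested. In whole cultures, fewer dividing cells and less RNA of these genes in each cell cannot be told apart.

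**Figure D1:**
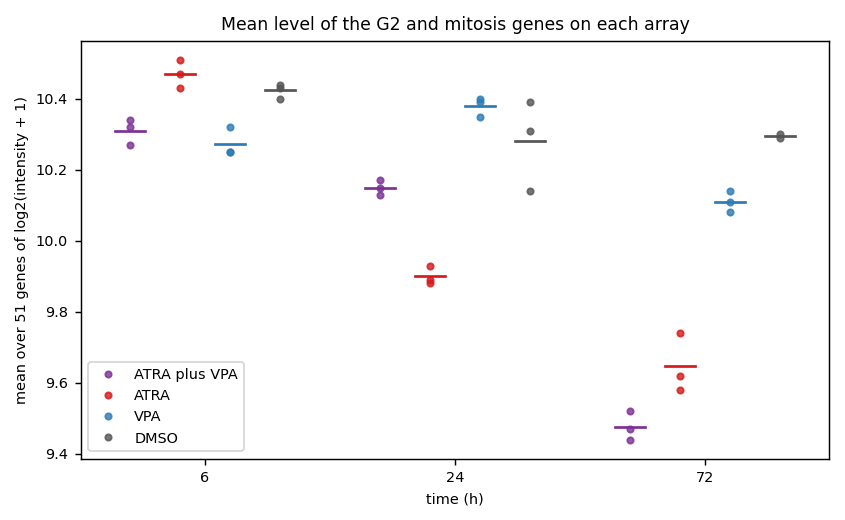
Mean over the 51 G2 and mitosis genes of log2(intensity + 1) on each of the 35 arrays (points) and the mean of each group (bars), against time in hours, with ATRA plus VPA, ATRA, VPA and DMSO from left to right at each time. At 72 h the ATRA plus VPA arrays (9.44 to 9.52) and the ATRA arrays (9.58 to 9.74) sit below the VPA and DMSO arrays, and at 24 h the ATRA arrays (9.88 to 9.93) sit lowest.

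Gene by gene, ATRA plus VPA at 72 h lowered all 51 genes past the threshold, an adjusted p under 0.05 in limma over all 11940 genes, where 16.6% of all genes fell. The median log2 change was -0.80 and the range -1.36 to -0.24, against a median of -0.01 over all genes, and 12 of the 51 were at least 2-fold lower. ATRA alone at 72 h lowered 47 of 51, where 20.2% of all genes fell, with a median of -0.63 and a range of -1.18 to 0.03, and 5 were at least 2-fold lower. ATRA at 24 h lowered 38 of 51, where 6.03% of all genes fell, with a median of -0.39 and a range of -0.69 to -0.06. It lowered 42 without the first DMSO array at 24 h, with a median of -0.46. ATRA plus VPA at 24 h lowered 13, where 7.79% fell, and raised 1, where 13.5% rose, with a median of -0.12. Without that array it lowered 16 and raised 0, with a median of -0.21. VPA alone at 72 h lowered 2, where 2.15% of all genes fell. Quantile normalization and median centring of the arrays left the medians of the 51 genes below 0 in each of these comparisons. Median centring put the median of all genes itself at -0.16 for ATRA at 24 h, -0.16 for VPA at 24 h, -0.21 for the combination at 24 h and -0.14 for it at 72 h.

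**Figure D2:**
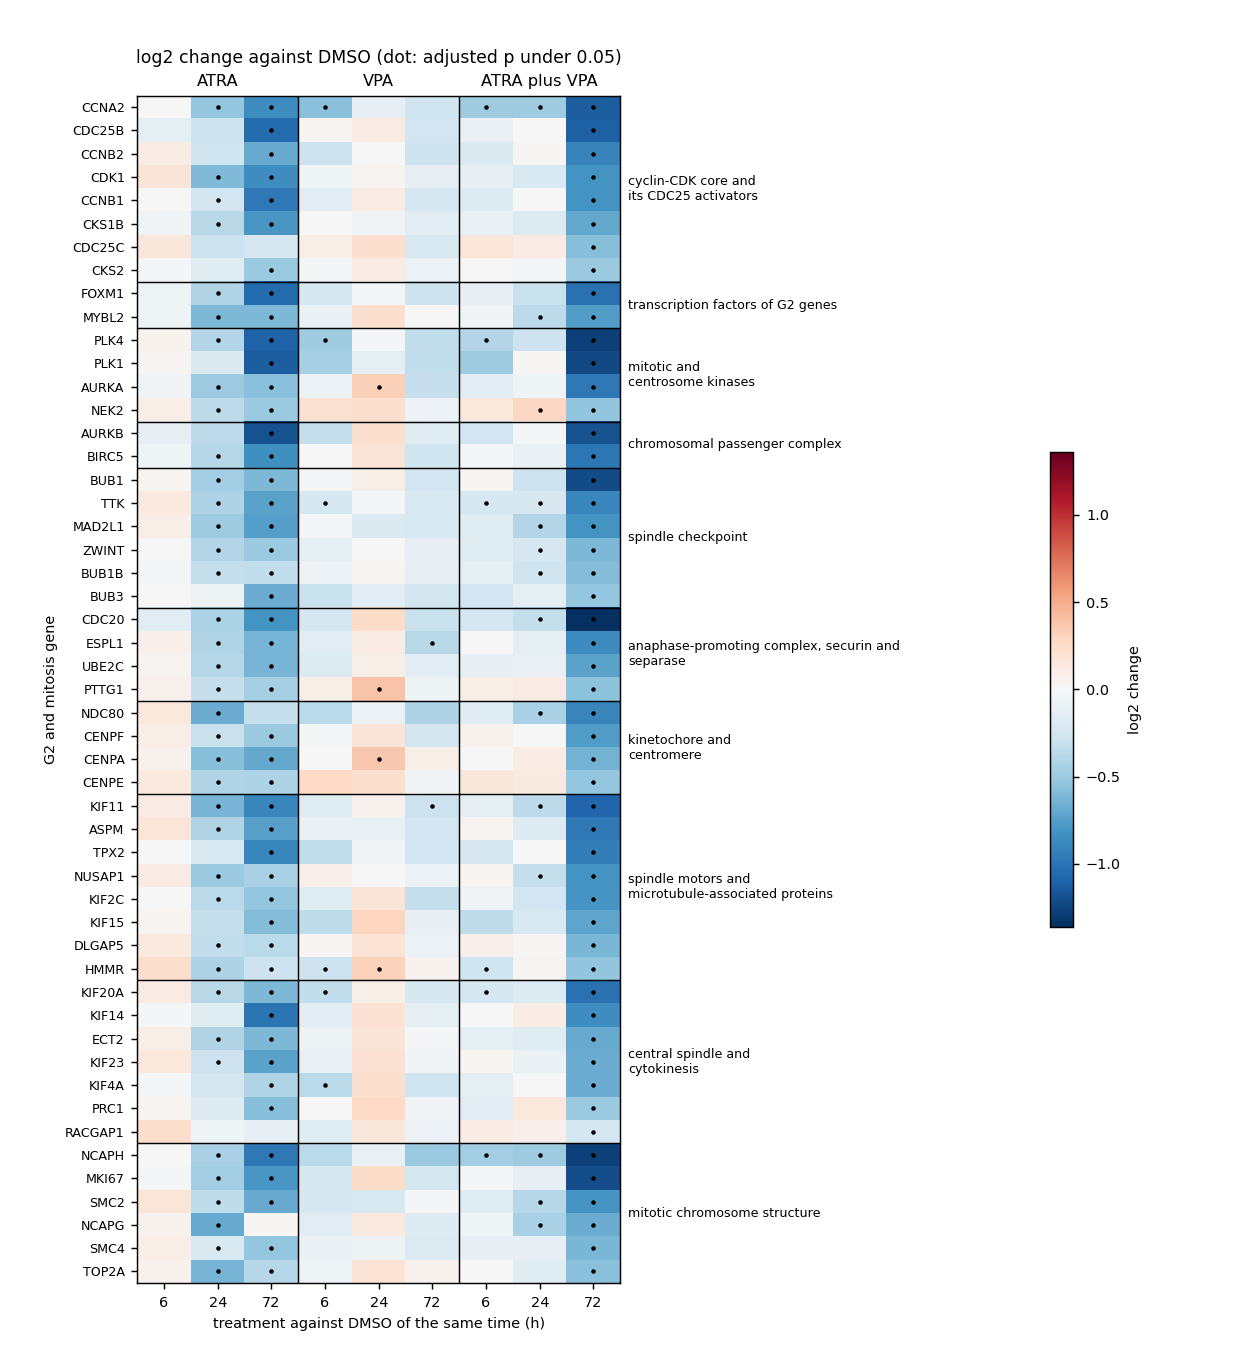
Log2 change of each of the 51 genes against DMSO of the same time (colour scale, blue lower, red higher) for ATRA, VPA and ATRA plus VPA at 6, 24 and 72 h. Genes are grouped by role, and dots mark an adjusted p under 0.05, which all 51 genes reached with ATRA plus VPA at 72 h and 47 with ATRA at 72 h.

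Among the cyclins, CDK1, CKS1B, CKS2 and the CDC25 phosphatases that switch CDK1 on, all 8 genes fell with ATRA plus VPA and 7 with ATRA at 72 h. CCNA2, cyclin A2 of S phase and G2, had 777, 803 and 829 with ATRA plus VPA, 989, 808 and 1145 with ATRA and 1467, 1452 and 1405 with VPA, against 1772 and 1711 with DMSO at 72 h. Both treatments with ATRA lay below VPA, and all treated arrays below DMSO. CCNA2 changed by -1.12 ± 0.10 (log2, SE; adjusted p = 3.5e-10) with ATRA plus VPA and by -0.84 ± 0.10 (adjusted p = 1.3e-07) with ATRA. Its further probe sets gave -1.37 and -1.49 with ATRA plus VPA and -1.15 and -1.28 with ATRA. CDK1, the mitotic kinase itself, had 1552, 1677 and 1734 with ATRA plus VPA, 1417, 1605 and 1873 with ATRA and 2537, 2699 and 2786 with VPA, against 2830 and 2957 with DMSO. The combination and ATRA overlapped, at -0.81 ± 0.09 (adjusted p = 4.4e-08) and -0.84 ± 0.09 (adjusted p = 4.3e-08). CCNB1, cyclin B1, had 1344, 1411 and 1586 with ATRA plus VPA, 1307, 1302 and 1278 with ATRA and 2112, 2089 and 2260 with VPA, against 2514 and 2552 with DMSO. Here ATRA alone lay below every array of the combination, with changes of -0.97 ± 0.09 (adjusted p = 2.1e-09) for ATRA and -0.81 ± 0.09 (adjusted p = 3.3e-08) for the combination. CDC25B had 650, 632 and 616 with ATRA plus VPA and 724, 551 and 724 with ATRA, against 1374 and 1364 with DMSO, 2.16-fold and 2.07-fold lower. CDC25C, its relative, did not pass with ATRA at 72 h, where it had 157, 142 and 173 against 169 and 200 with DMSO (-0.23 ± 0.13, adjusted p = 0.20), but fell with the combination (-0.58, adjusted p = 0.00097).

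FOXM1 and MYBL2, the transcription factors of the G2 genes, fell themselves, FOXM1 by its brightest probe set only. FOXM1 had 541, 603 and 680 with ATRA plus VPA, 509, 540 and 753 with ATRA and 1008, 986 and 1031 with VPA, against 1195 and 1261 with DMSO at 72 h. The combination and ATRA overlapped, with changes of -1.02 ± 0.15 (adjusted p = 3.8e-06) and -1.05 ± 0.15 (adjusted p = 3.7e-06). The second, dim probe set of FOXM1 (mean intensity 64.9) showed no such fall, at -0.08 with the combination and 0.07 with ATRA. MYBL2 had 282, 344 and 354 with ATRA plus VPA, 391, 318 and 381 with ATRA and 535, 548 and 568 with VPA, against 518 and 587 with DMSO. VPA alone overlapped with DMSO, while the combination (-0.76 ± 0.14, adjusted p = 7e-05) and ATRA (-0.61 ± 0.14, adjusted p = 0.0012) did not.

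All 4 mitotic and centrosome kinases fell at 72 h with ATRA plus VPA and with ATRA. PLK1, which acts from mitotic entry to cytokinesis, had 349, 346 and 480 with ATRA plus VPA, 349, 394 and 527 with ATRA and 711, 695 and 748 with VPA, against 894 and 925 with DMSO. The combination was 2.35-fold lower (-1.23 ± 0.19, adjusted p = 7.2e-06) and ATRA 2.18-fold lower (-1.12 ± 0.19, adjusted p = 3.8e-05). PLK4, which starts centriole duplication, had 202, 186 and 181 with ATRA plus VPA, 237, 173 and 234 with ATRA and 401, 340 and 344 with VPA, against 451 and 465 with DMSO. It fell 2.41-fold with the combination (adjusted p = 7.7e-09) and 2.15-fold with ATRA (adjusted p = 1.7e-07). AURKA, the centrosomal Aurora kinase, fell more with the combination (-0.97) than with ATRA (-0.57), a difference of -0.40 ± 0.10 (adjusted p = 0.0051). Its second probe set gave -1.07 and -0.90. NEK2, a centrosome kinase, changed by -0.54 and -0.50. In the chromosomal passenger complex, AURKB, the Aurora kinase of the centromere, had 158, 184 and 205 with ATRA plus VPA, 190, 184 and 173 with ATRA and 326, 381 and 402 with VPA, against 386 and 446 with DMSO. VPA alone overlapped with DMSO. Its ATRA change of -1.18 ± 0.18 (adjusted p = 8.4e-06) was the lowest of the 51 genes for ATRA at 72 h by brightest probe set, and the combination gave -1.19 ± 0.18 (adjusted p = 4.9e-06). BIRC5, survivin of the same complex, changed by -0.98 and -0.83. Further probe sets of BIRC5 (-1.39), SMC4 (-1.32) and CCNA2 (-1.28) lay below the AURKB value with ATRA.

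The 6 spindle checkpoint genes fell with both treatments at 72 h. BUB1, the checkpoint kinase at the kinetochore, had 101, 111 and 141 with ATRA plus VPA, 188, 162 and 189 with ATRA and 246, 240 and 202 with VPA, against 270 and 275 with DMSO. The 4 groups did not overlap, and BUB1 fell by 1.22 ± 0.13 on the log2 scale with the combination (adjusted p = 1e-08), against 0.61 with ATRA (-0.61 ± 0.13, adjusted p = 0.00057). Its second, dim probe set (mean intensity 60.5) gave the other order, -0.84 with the combination and -1.01 with ATRA. TTK, the kinase that starts checkpoint signalling, changed by -0.89 and -0.73, MAD2L1, an inhibitor of CDC20, by -0.81 and -0.75, and BUB1B, which acts with it, by -0.59 and -0.34.

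CDC20, the activator of the anaphase-promoting complex, fell most of all 51 genes with the combination by brightest probe set. Further probe sets of CCNA2 gave -1.37 and -1.49. CDC20 had 375, 483 and 408 with ATRA plus VPA, 699, 538 and 619 with ATRA and 882, 954 and 796 with VPA, against 1053 and 1101 with DMSO at 72 h. The groups did not overlap: the combination was 2.56-fold lower than DMSO (-1.36 ± 0.13, adjusted p = 8.2e-10) and ATRA 1.75-fold lower (-0.81 ± 0.13, adjusted p = 1.2e-05). ESPL1, the separase that cuts cohesin, changed by -0.87 and -0.63, UBE2C, the ubiquitin-conjugating enzyme of the complex, by -0.73 and -0.63, and PTTG1, the securin, by -0.56 and -0.45, all past the threshold.

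Of the 4 kinetochore and centromere genes, all fell with the combination and 3 with ATRA at 72 h. NDC80, which binds microtubules at the kinetochore, had 225, 263 and 215 with ATRA plus VPA, 298, 356 and 406 with ATRA and 334, 319 and 322 with VPA, against 449 and 422 with DMSO. All treated arrays were below DMSO, but the ATRA change of -0.31 ± 0.15 did not pass (adjusted p = 0.12), against -0.90 ± 0.15 (adjusted p = 2.1e-05) for the combination. CENPA, the centromeric histone H3 variant, changed by -0.64 and -0.70, and CENPF and CENPE, a scaffold and a motor of the kinetochore, by -0.76 and -0.51 and by -0.53 and -0.42.

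The 8 spindle motors and microtubule-associated proteins all fell with the combination and with ATRA at 72 h. KIF11, the motor that pushes spindle poles apart, had 365, 399 and 382 with ATRA plus VPA, 403, 416 and 488 with ATRA and 671, 643 and 659 with VPA, against 816 and 796 with DMSO. The 4 groups did not overlap, with changes of -1.08 ± 0.08 (adjusted p = 1.9e-11), -0.89 ± 0.08 (adjusted p = 1.6e-09) and -0.29 ± 0.08 (adjusted p = 0.03). TPX2, which activates AURKA on the spindle, changed by -0.94 with the combination and by -0.89 with ATRA. Of 7 central spindle and cytokinesis genes, all fell with the combination and 6 with ATRA. KIF20A, a motor of the central spindle, had 590, 594 and 543 with ATRA plus VPA, 702, 837 and 736 with ATRA and 1010, 924 and 1042 with VPA, against 1166 and 1145 with DMSO, again without overlap (-1.01 ± 0.09, adjusted p = 2.6e-10, for the combination). RACGAP1, a GTPase activator of the central spindle, had the smallest change of the 51 genes with the combination. It had 1416, 1371 and 1502 with ATRA plus VPA, and 1487, 1567 and 1636 with ATRA, against 1689 on each DMSO array. It fell 1.18-fold with the combination (-0.24 ± 0.08, adjusted p = 0.016) and did not pass with ATRA (-0.11 ± 0.08, adjusted p = 0.29).

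Of the 6 genes of mitotic chromosome structure, all fell with the combination and 5 with ATRA at 72 h. NCAPH, a condensin I subunit, had 136, 122 and 81.6 with ATRA plus VPA, 151, 110 and 151 with ATRA and 215, 153 and 202 with VPA, against 258 and 276 with DMSO. It fell 2.40-fold with the combination (adjusted p = 1.1e-06) and 1.96-fold with ATRA (adjusted p = 7.4e-05). MKI67, the Ki-67 coat protein of mitotic chromosomes, had 583, 565 and 552 with ATRA plus VPA, 797, 735 and 746 with ATRA and 1112, 1092 and 1121 with VPA, against 1270 and 1353 with DMSO. The groups did not overlap, at -1.21 ± 0.10 (adjusted p = 7e-11) for the combination and -0.79 ± 0.10 (adjusted p = 4.3e-07) for ATRA. Its further probe sets gave -1.08 and -0.94, -0.88 and -0.85, and -0.90 and -0.86. TOP2A, the topoisomerase that untangles sister chromatids, had 3044, 2931 and 2457 with ATRA plus VPA, 3202, 3036 and 3270 with ATRA and 4129, 4057 and 4864 with VPA, against 4094 and 4226 with DMSO (-0.57 ± 0.10, adjusted p = 4.2e-05, and -0.39 ± 0.10, adjusted p = 0.0033).

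NCAPG, another condensin I subunit, was the exception among the 51. It had 1227, 1143 and 1186 with ATRA plus VPA, 1966, 1884 and 1999 with ATRA and 1658, 1839 and 1555 with VPA, against 1936 and 1875 with DMSO at 72 h. ATRA overlapped with DMSO (0.03 ± 0.14, 95% interval -0.25 to 0.31, adjusted p = 0.88) and the combination did not (-0.68 ± 0.14, adjusted p = 0.00021). Its second, dimmer probe set differed: there the ATRA change at 72 h was -0.60 and that of the combination -1.07, while at 24 h the 2 probe sets gave -0.69 and -0.46 for ATRA. HMMR, a spindle assembly protein, also differed between its 2 probe sets, at -0.28 and -1.01 for ATRA at 72 h. In all, 22 of the 51 genes had more than 1 probe set, and of the 37 further probe sets 36 lay below 0 for the combination at 72 h, 33 for ATRA at 72 h and 30 for ATRA at 24 h.

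**Figure D3:**
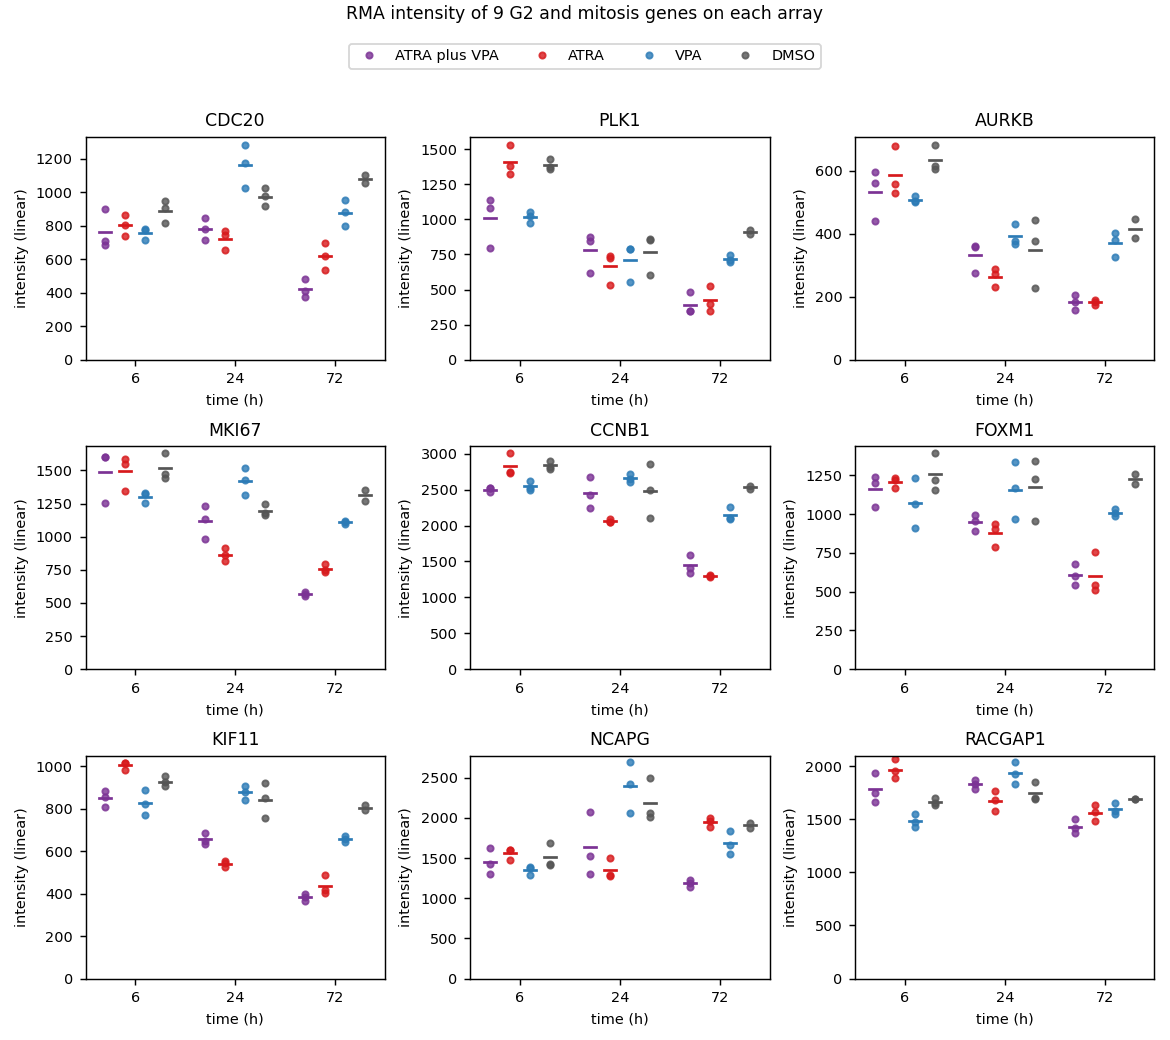
Linear RMA intensity of CDC20, PLK1, AURKB, MKI67, CCNB1, FOXM1, KIF11, NCAPG and RACGAP1 on each array (points) with group means (bars), against time in hours, with ATRA plus VPA, ATRA, VPA and DMSO from left to right. At 72 h CDC20, KIF11 and MKI67 separate into 4 groups without overlap, the ATRA arrays of NCAPG (1884 to 1999) lie at the level of DMSO, and with ATRA plus VPA RACGAP1 has the smallest change.

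With ATRA, 38 of the 51 genes fell at 24 h and 47 at 72 h, where 6.03% and 20.2% of all genes did. Counts this high force most of the calls to be shared. Against DMSO of each time, 36 genes fell at both times, NDC80 and NCAPG only at 24 h, 11 only at 72 h, and CDC25C and RACGAP1 at neither. Without the first DMSO array at 24 h, 40 fell at both times and 7 only at 72 h, with NDC80 and NCAPG again only at 24 h. The largest falls at 24 h were those of NCAPG (-0.69 ± 0.12, adjusted p = 0.00011), NDC80 (-0.68 ± 0.13, adjusted p = 0.00038), KIF11 (-0.63 ± 0.07, adjusted p = 1.8e-07), TOP2A (-0.63 ± 0.09, adjusted p = 5e-06) and MYBL2 (-0.61 ± 0.13, adjusted p = 0.00066). TOP2A had 2230, 2211 and 2271 with ATRA, against 3580, 3712 and 3124 with DMSO at 24 h. Its second probe set gave -0.34 for ATRA at 24 h and -0.70 at 72 h, where the brightest gave -0.63 and -0.39. At 72 h the lowest changes were those of AURKB, PLK1, PLK4, FOXM1 and CDC25B, of which AURKB (-0.36, adjusted p = 0.13), PLK1 (-0.20, adjusted p = 0.47) and CDC25B (-0.29, adjusted p = 0.14) had not passed at 24 h. These 3 values rest on the first DMSO array at 24 h: without it AURKB gave -0.64 ± 0.14 (adjusted p = 0.0015) and CDC25B -0.50 ± 0.12 (adjusted p = 0.0029), both past the threshold, and PLK1 -0.37 ± 0.18 (adjusted p = 0.21). Across the 51 genes, which share arrays and are not independent replicates, the ATRA changes at 24 h and 72 h had a Pearson r of -0.09 and a Spearman rho of -0.01, and those of the combination 0.43 and 0.45. Without that array the ATRA changes had an r of 0.20 and a rho of 0.20, and those of the combination 0.52 and 0.52.

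**Figure D4:**
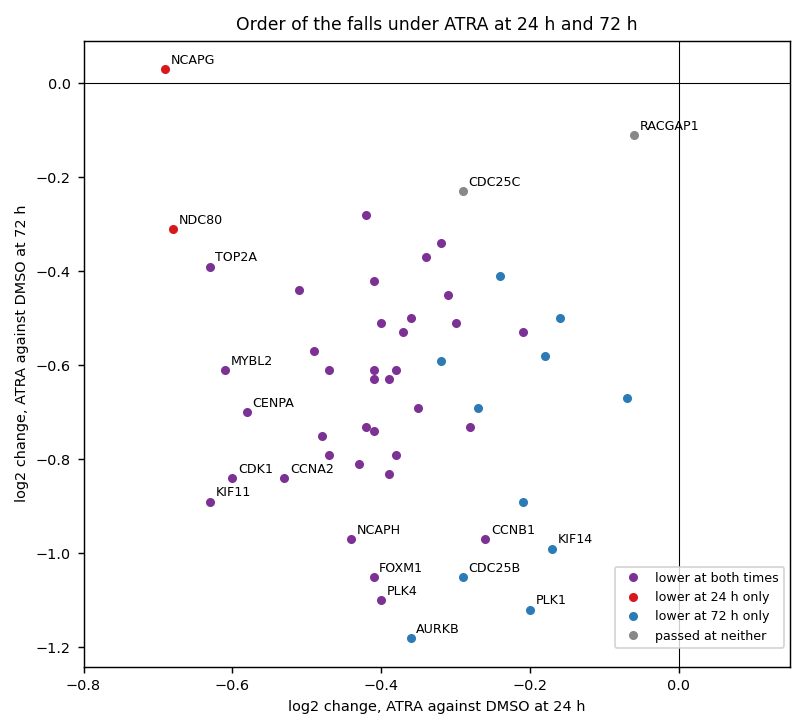
Log2 change of each of the 51 genes with ATRA against DMSO at 24 h (x axis) and at 72 h (y axis), coloured by the times at which the gene passed an adjusted p of 0.05. NCAPG and NDC80 are far left but high, AURKB, PLK1 and KIF14 are low but near the right, with r = -0.09 over all genes. Without the first DMSO array at 24 h, r was 0.20 and AURKB lay at -0.64 on the x axis.

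The difference between the times was also tested gene by gene. The ATRA effect was lower at 72 h than at 24 h for 16 genes, where 15.1% of all genes were, and higher for 1, NCAPG, where 3.87% were. The largest differences were those of PLK1 (-0.92 ± 0.26, adjusted p = 0.013), KIF14, a cytokinesis motor (-0.82 ± 0.16, adjusted p = 0.00096), and AURKB (-0.82 ± 0.24, adjusted p = 0.019), and NCAPG gave 0.72 ± 0.18 (adjusted p = 0.0077), or 0.29 (adjusted p = 0.086) as the mean of its 2 probe sets. Fewer genes passed in other settings: 6 genes passed without the first DMSO array at 24 h, 8 and 6 without the first and the second DMSO array at 72 h, 10 without the first ATRA array at 72 h, 11 without the first or the third ATRA array at 24 h, 6 after median centring, 4 after quantile normalization and 5 where the 3′/5′ ratio entered the fit. When the first DMSO array at 24 h was left out, KIF14 (-0.74 ± 0.16, adjusted p = 0.0039) and NCAPG (0.63 ± 0.19, adjusted p = 0.029) still passed, and PLK1 (-0.75 ± 0.25, adjusted p = 0.053) and AURKB (-0.54 ± 0.20, adjusted p = 0.072) did not. With the 3′/5′ ratio PLK1 gave -0.36 (adjusted p = 0.25), AURKB -0.46 (adjusted p = 0.23) and NCAPG 0.39 (adjusted p = 0.13). The combination's effect was lower at 72 h than at 24 h for 41 of the 51 genes, where 4.36% of all genes were, with a median difference of -0.66, and for 37 without the first DMSO array at 24 h. PLK1 (-1.25 ± 0.26, adjusted p = 0.0022), AURKB (-1.16 ± 0.24, adjusted p = 0.0026) and CDC25B (-1.12 ± 0.20, adjusted p = 0.00038) led.

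VPA alone moved few of the genes past the adjusted threshold at any time. Below 0 lay 44 of the 51 changes at 6 h and 48 at 72 h, and above 0 lay 35 at 24 h. At an unadjusted p under 0.05 in limma, 17 were lower and 2 higher at 6 h, and 18 and 0 at 72 h. At 24 h 0 were lower and 14 higher. Without the first DMSO array at 24 h 28 changes lay above 0 there, and 3 were lower and 7 higher. At 6 h, 6 of 51 fell, where 4.7% of all genes did, with a median of -0.14: CCNA2 (-0.57 ± 0.09, adjusted p = 4.4e-05), PLK4 (-0.48 ± 0.12, adjusted p = 0.0068), KIF4A, a chromokinesin (-0.37 ± 0.12, adjusted p = 0.046), KIF20A (-0.33 ± 0.08, adjusted p = 0.0057), HMMR (-0.28 ± 0.09, adjusted p = 0.029) and TTK (-0.24 ± 0.07, adjusted p = 0.019). CCNA2 had 1334, 1240 and 1326 with VPA, against 1924, 1964 and 1888 with DMSO at 6 h, without overlap. The count at 6 h was 2 without the first DMSO array and 3 without the first or the second VPA array. At 24 h none fell and 4 (7.84%) rose, below the 9.66% of all genes that rose. They were PTTG1 (0.39 ± 0.07, adjusted p = 0.00042), CENPA (0.37 ± 0.08, adjusted p = 0.0025), AURKA (0.32 ± 0.10, adjusted p = 0.041) and HMMR (0.31 ± 0.09, adjusted p = 0.015). PTTG1 had 6254, 6427 and 5623 with VPA, against 4759, 4594 and 4611 with DMSO at 24 h. The median of the 51 genes was 0.11 with VPA at 24 h but 0.01 without the first DMSO array, and after median centring it turned to -0.11, with none higher and 8 lower, so the direction at 24 h depends on the scaling. Without the second VPA array 2 passed at 24 h, and without the third DMSO array 7. At 72 h only ESPL1 (-0.38 ± 0.11, adjusted p = 0.033) and KIF11 passed, with a median of -0.21. ESPL1 had 1310, 1275 and 1364 with VPA, against 1759 and 1676 with DMSO. Its second probe set, of near the same mean intensity (1520 against 1540), gave -0.20. CCNA2 did not pass, at -0.27, and its further probe sets gave -0.51 and -0.54. Without the third VPA array 1 gene passed at 72 h, and without any other array of either group 0. NCAPH, with the lowest VPA value at 72 h by brightest probe set (-0.50 ± 0.18), did not pass (adjusted p = 0.09). The VPA effect differed between 72 h and 24 h for PTTG1 alone (-0.46 ± 0.11, adjusted p = 0.041), where 0.276% of all genes were lower, with a median difference of -0.28, and the number was 0 to 2 when 1 array was left out.

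At 6 h ATRA alone changed none of the 51 genes in limma, where 1.62% of all genes changed in either direction. At an unadjusted p under 0.05, 3 were higher and 0 lower, and the median was 0.05. ATRA plus VPA lowered 6 genes at 6 h, where 4.87% of all genes fell, with a median of -0.11. CCNA2 led with 1458, 1333 and 1359, against 1924, 1964 and 1888 with DMSO (-0.48 ± 0.09, adjusted p = 0.00036), followed by NCAPH (-0.47 ± 0.16, adjusted p = 0.05), PLK4 (-0.40 ± 0.12, adjusted p = 0.022), HMMR (-0.27 ± 0.09, adjusted p = 0.039), KIF20A (-0.24 ± 0.08, adjusted p = 0.045) and TTK (-0.24 ± 0.07, adjusted p = 0.017). CCNA2, PLK4, HMMR, KIF20A and TTK were also those of VPA alone at 6 h, in a comparison with the same DMSO arrays. The count for the combination at 6 h was 1 without the first DMSO or the third combination array, 2 without the third DMSO array and 3 without the first or the second combination array. At 24 h the combination lowered most CCNA2 (-0.48 ± 0.09, adjusted p = 0.00019), NCAPH (-0.48 ± 0.16, adjusted p = 0.028), NCAPG (-0.44 ± 0.12, adjusted p = 0.0097), NDC80 (-0.44 ± 0.13, adjusted p = 0.019) and MAD2L1 (-0.40 ± 0.10, adjusted p = 0.0039). The gene that rose was NEK2, with 998, 1033 and 997 against 824, 821 and 845 with DMSO (0.28 ± 0.10, adjusted p = 0.038), a call that ended when any 1 of the 6 arrays was left out (adjusted p up to 0.11). NCAPG (-0.34, adjusted p = 0.073) and NDC80 (-0.37, adjusted p = 0.09) did not pass without the first DMSO array either. Of both directions together, 14 genes, 9 passed without the second and 6 without the third DMSO array, and 8 and 9 without the first and the third combination array.

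The combination was then compared with each agent directly, a contrast in which the DMSO means cancel. Against ATRA, it was higher at 24 h and lower at 72 h. At 24 h, 15 of the 51 genes were higher than with ATRA alone, where 4.86% of all genes were, and none lower, with a median of 0.24 and a range of -0.05 to 0.69. CENPA had 1749, 1854 and 1831 with the combination, against 1175, 1024 and 1177 with ATRA (0.69 ± 0.08, adjusted p = 7.1e-07). NEK2 (0.64 ± 0.10, adjusted p = 3.2e-05) and CENPE (0.53 ± 0.12, adjusted p = 0.0025) followed. MKI67, with 1229, 1132 and 984 for the combination against 820, 912 and 858 for ATRA, was among the 15 (0.36, adjusted p = 0.0072). At 72 h, 13 genes were lower than with ATRA, where 6.2% of all genes were, with a median of -0.15. NCAPG (-0.72 ± 0.12, adjusted p = 9e-05), BUB1 (-0.62 ± 0.12, adjusted p = 0.00029) and NDC80 (-0.59 ± 0.13, adjusted p = 0.0021) led, and CDC20, MKI67, AURKA and KIF20A were among them. Without the third ATRA array 8 passed. The gap between the combination and ATRA was smaller on further probe sets of MKI67 and AURKA, and reversed on a dim second one of BUB1. The second probe set of NCAPG kept it, at -1.07 and -0.60 against DMSO. At 6 h, 10 genes were lower than with ATRA, where 4.84% were, with a median of -0.11, led by HMMR (-0.51 ± 0.09, adjusted p = 0.00011), NCAPH (-0.47 ± 0.16, adjusted p = 0.048) and CCNA2 (-0.46 ± 0.09, adjusted p = 0.00051), and 5 passed without the second or the third ATRA array. The mean log2 3′/5′ ratio was 0.97 for the combination and 0.89 for ATRA at 24 h, and 1.36 and 1.82 at 72 h, and with it as a covariate 16 genes passed at 24 h and 12 at 72 h.

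Against VPA, the combination lowered 49 of the 51 genes at 72 h, where 13.4% of all genes were lower, with a median of -0.63. CDC20 (-1.06 ± 0.11, adjusted p = 1.7e-08), AURKB (-1.02 ± 0.16, adjusted p = 1.3e-05) and BUB1 (-0.97 ± 0.12, adjusted p = 1.3e-07) led. At 24 h 20 genes were lower than with VPA, where 6.74% were, with a median of -0.25, led by MYBL2 (-0.57 ± 0.13, adjusted p = 0.0018), CDC20 (-0.57 ± 0.11, adjusted p = 0.00075) and NCAPG (-0.57 ± 0.12, adjusted p = 0.0017). Without the third combination array 9 passed at 24 h, and 11 and 13 without the second and the third VPA array. At 6 h limma called none, where 0.57% of all genes differed in either direction, and 2 were higher and 0 lower at an unadjusted p under 0.05.

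The ATRA by VPA interaction, the change with both agents minus the changes with each, passed for none of the 51 genes in limma. At 72 h the median was 0.03 (-0.12 after quantile normalization), where 1.92% of all genes passed in either direction, and at an unadjusted p under 0.05 there were 4 lower and 3 higher. CCNB1 (0.39 ± 0.12, adjusted p = 0.099) and NCAPG (-0.54 ± 0.18, adjusted p = 0.13) had the smallest p at 72 h. At 24 h the median was 0.15, 46 of 51 values were above 0 and 8 passed the unadjusted threshold, all higher, where 0.737% of all genes passed after adjustment. Without the first DMSO array at 24 h the median was 0.20, 50 of 51 values were above 0 and 17 passed the unadjusted threshold, all higher, and again none passed after adjustment. CDK1 gave 0.35 ± 0.12 (adjusted p = 0.22) and NEK2 0.41 ± 0.14 (adjusted p = 0.22). At 6 h the median was -0.02, with 0 at the unadjusted threshold, and 0% of all genes passed.

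With DMSO alone, part of the list also drifted over time. At 24 h 9 genes were lower than at 6 h, where 10% of all genes were, and 2 were higher, where 5.19% were, with a median of -0.12 that turned to 0.03 after median centring (6 lower, 5 higher). AURKB had 228, 376 and 445 at 24 h, against 604, 614 and 681 at 6 h (-0.91 ± 0.16, adjusted p = 0.00056), and PLK1 had 602, 850 and 861 against 1373, 1431 and 1357 (-0.87 ± 0.17, adjusted p = 0.0013). TPX2 changed by -0.75 ± 0.15 (adjusted p = 0.0011), and NCAPG (0.53 ± 0.12, adjusted p = 0.0045) and HMMR (0.32 ± 0.09, adjusted p = 0.013) rose. At 72 h 9 were lower than at 6 h, where 5.5% of all genes were, and 2 higher, where 5.08% were, with a median of -0.11. SMC2, a condensin ATPase (-0.81 ± 0.14, adjusted p = 0.00021), TPX2 (-0.67 ± 0.16, adjusted p = 0.0074) and PLK1 (-0.61 ± 0.19, adjusted p = 0.039) led, and AURKA (0.35) and CKS2 (0.27), a CDK1-binding protein, rose. The log2 3′/5′ ratio of the DMSO arrays was 1.05 at 24 h and 1.06 at 72 h, against 0.27 at 6 h, and with it as a covariate 1 gene passed at 24 h and 3 at 72 h, all lower. The fit without the first DMSO array at 24 h had 6 genes lower and 1 higher at that time, with a median of -0.04. AURKB (-0.63), PLK1 (-0.70), TPX2 (-0.58) and NCAPG (0.43) still passed. At 72 h 2 to 7 passed when any 1 array was left out, the fewest without the first array at 72 h.

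Related lists fell alongside. Of 63 further G2 and mitosis genes, 51 fell and 1 rose with ATRA plus VPA at 72 h, with a median of -0.69. Of all genes, 16.6% fell and 14.9% rose there. With ATRA at 72 h 46 fell, where 20.2% of all genes did, with a median of -0.51. OIP5, which helps load CENPA (-1.50 ± 0.12, adjusted p = 3.8e-11), CDCA3, a mitotic entry factor (-1.29 ± 0.18, adjusted p = 1.3e-06), and LMNB1, lamin B1 of the nuclear envelope (-1.28 ± 0.29, adjusted p = 0.00067), led with the combination, and CCNB1IP1, a ubiquitin ligase that binds cyclin B1, was the gene that rose (0.41 ± 0.10, adjusted p = 0.0018). OIP5 (-1.27 ± 0.12), CDCA3 (-1.21 ± 0.18) and PBK, a mitotic kinase (-1.15 ± 0.11), led with ATRA. With VPA 7 fell at 72 h, where 2.15% of all genes did, led by SPAG5, a spindle protein (-0.61 ± 0.10, adjusted p = 0.0001), KIF18A (-0.53 ± 0.15, adjusted p = 0.026) and OIP5 (-0.50 ± 0.12, adjusted p = 0.0074). Of 42 DNA replication genes, whose products act in S phase, 41 fell with the combination at 72 h (median -0.89), 36 with ATRA (median -0.62) and 3 with VPA (median -0.19). Of the 51 G2 and mitosis genes 51, 47 and 2 fell (medians -0.80, -0.63 and -0.21), and of all genes 16.6%, 20.2% and 2.15%. The helicase subunit MCM4 (-1.80 ± 0.20, adjusted p = 2.4e-08), the origin-firing kinase CDC7 (-1.65 ± 0.10, adjusted p = 1.4e-13) and the licensing factor CDC6 (-1.58 ± 0.18, adjusted p = 3.1e-08) led with the combination. CDC7 (-1.42 ± 0.10), MCM10 (-1.40 ± 0.16) and RFC2 (-1.20 ± 0.24) led with ATRA, and MCM5 (-0.43 ± 0.13), TYMS (-0.31 ± 0.09) and RPA1 (-0.29 ± 0.09) with VPA. At 24 h the combination lowered 23 of the 42 replication genes and 13 of the 51 G2 and mitosis genes, where 7.79% of all genes fell. The difference between the lists was not tested.

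**Figure D5:**
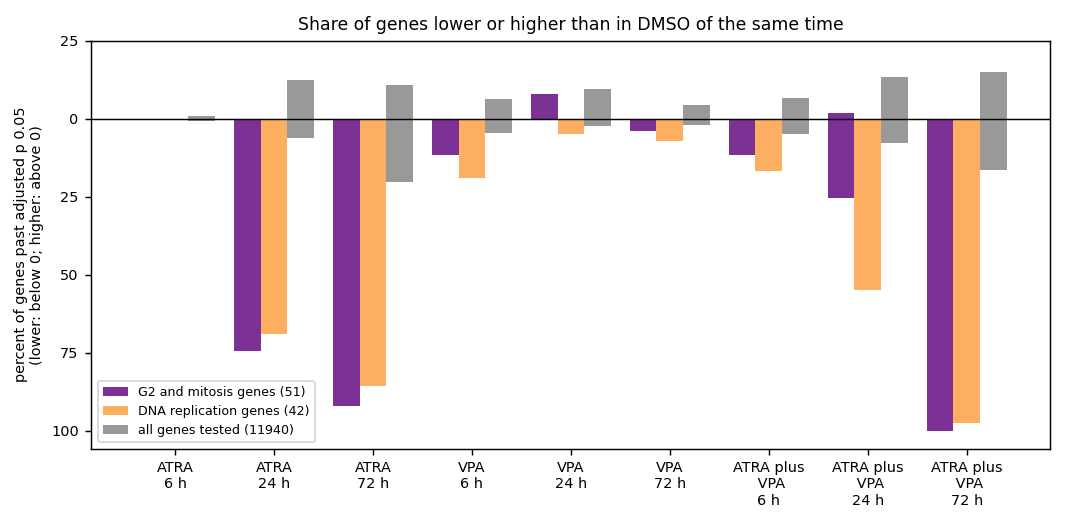
Percent of genes past an adjusted p of 0.05 against DMSO of the same time, lower drawn below 0 and higher above 0, for the 51 G2 and mitosis genes, 42 DNA replication genes and all 11940 genes. All 51 genes are lower with ATRA plus VPA at 72 h, where 16.6% of all genes are, and with VPA the bars stay short at every time.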

How the data were processed

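Gene expression in BE(2)-C cells was measured on 35 arrays of an early access Affymetrix human design, with total RNA amplified from an oligo-dT primer, per the labels' protocols. The deposited table holds a linear intensity for each probe set, which the authors obtained with RMA (per the submitters' processing notes). The software version was not given in the sources used here. No column of another sample was present and no arrays were identical.

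From these values, log2(intensity + 1) was computed. Of 22930 probe sets, 19415 named exactly 1 gene, and the brightest probe set stood for each of 11940 genes; 125 probe sets with several symbols and 98 control probe sets were left out. Gene names came from the platform annotation, and 0 of the 51 genes had another current symbol by Entrez identifier. A single limma model (version 3.58.1, R 4.3.3) held a mean for each of the 12 groups, with 23 degrees of freedom from residuals and 5.5 from the prior, and 23 contrasts were tested, 9 of them treatments against DMSO of the same time. P-values are two-sided and adjusted by Benjamini-Hochberg over all 11940 genes within a contrast, and 0.05 was the threshold. Standard errors (SE) come from this model. The procedure was tested on simulated data. Arrays carry no read depth; their number and the signal over background limit the precision.

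The 51 genes, their roles, the comparison lists and the promoters shown were chosen with earlier results of these data known. Values per array are given for the gene of each role with the largest change with ATRA plus VPA at 72 h and for MKI67, TOP2A, CDK1, CCNB1, PLK1, AURKB, FOXM1 and MYBL2. Named besides are the 5 largest changes past the threshold in each contrast with DMSO, the 3 largest in other contrasts, genes opposite to most, those that did not pass at 72 h, and the 3 largest of each comparison list at 72 h. Other genes with values, among them further examples of each role, were picked after their values were seen. Alternatives tried were a replicate block, fits of only the arrays compared, the lowest 33.3% of genes left out (all 51 genes stayed), the mean of all probe sets, array weights, a robust prior with an intensity trend, a second quantile normalization, median centring, a pseudocount of 32, the 3′/5′ ratio as a covariate and leaving out each array.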

Additional observations from a re-analysis of the deposited data

Results flagged for a closer look

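Some effects differed between times by a test of the difference itself, in limma with adjustment over all 11940 genes. The ATRA effect at 72 h differed from that at 24 h for 17 of the 51 genes, among them PLK1 (-0.92 on the log2 scale), AURKB (-0.82) and KIF14 (-0.82). Of all genes, 15.1% were lower and 3.87% higher by that test. Without the first DMSO array at 24 h, which stood apart, 6 passed, KIF14 among them (-0.74, adjusted p = 0.0039), and PLK1 (-0.75, adjusted p = 0.053) and AURKB (-0.54, adjusted p = 0.072) did not.

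The VPA effect at 72 h differed from that at 24 h for 1 gene, PTTG1 (-0.46), and without that array for PTTG1 (-0.48) and AURKA (-0.72). Of all genes, 0.276% were lower with all arrays and 0.184% without that array. The effect of ATRA plus VPA at 72 h differed from that at 24 h for 41 genes, all lower, where 4.36% of all genes were. PLK1 (-1.25), AURKB (-1.16) and CDC25B (-1.12) led.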

How the results depend on the processing

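The counts of fallen genes for ATRA plus VPA at 72 h (51) and for ATRA at 72 h (47) stayed within 1.5 times under every alternative run, at 50 to 51 and at 41 to 48, and so did the 49 of the combination against VPA at 72 h, at 47 to 51. For the genes that passed in each comparison, 5190 of the values under alternatives kept direction and call and 688 kept direction and lost the call. The other 2 changed sign, both of HMMR by the mean of all probe sets: 0.04 for the combination against ATRA at 72 h and -0.06 for DMSO at 24 h against 6 h. Genes that had not passed as reported are not in this tally, so it cannot show calls gained. The causes of the shifts below were not tested, except that fits of only the arrays compared have fewer residual degrees of freedom.

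Numbers of the 51 genes called were as follows where they moved by over 1.5 times. In fits of only the arrays compared they were 11 for ATRA at 24 h, 13 for VPA at 6 h, 0 for VPA at 24 h and 1 for the combination at 24 h. They were 8 for the combination against ATRA at 24 h and 8 at 72 h, 7 against VPA at 24 h, 0 for DMSO at 24 h against 6 h, and 3, 0 and 22 for the change from 24 h to 72 h of the ATRA, VPA and combined effects. With array weights they were 2 (ATRA at 6 h), 14, 7 and 17 (VPA at 6, 24 and 72 h), 11 and 23 (combination at 6 and 24 h), 20 and 31 (combination against ATRA at 6 and 24 h) and 1 (against VPA at 6 h). They were also 7 and 2 (interaction at 24 and 72 h), 21 and 18 (DMSO at 24 and 72 h against 6 h) and 5 (VPA effect between times). With median centring they were 16, 8 and 8 (VPA at 6, 24 and 72 h), 13 and 35 (combination at 6 and 24 h), 21 and 31 (combination against ATRA at 6 and 72 h), and 6 and 0 (ATRA and VPA effects between times). With quantile normalization they were 7 and 1 (VPA at 24 and 72 h), 30 and 26 (combination against ATRA at 24 and 72 h), 1 (interaction at 72 h), and 4 and 0 (ATRA and VPA effects between times). By the mean of all probe sets they were 10 and 4 (VPA at 6 and 72 h), 19 and 19 (DMSO at 24 and 72 h) and 2 (VPA effect between times). With the 3′/5′ ratio they were 1 (ATRA at 6 h), 2 (VPA at 24 h), 1 (combination against VPA at 6 h), 1 and 3 (DMSO at 24 and 72 h), and 5 and 0 (ATRA and VPA effects between times). A pseudocount of 32 gave 1 for ATRA at 6 h, 1 for the combination against VPA at 6 h, 1 for the interaction at 72 h and 2 for the VPA effect between times, which was also 2 without the dimmest genes and 2 with an intensity trend. That trend gave 1 for the interaction at 72 h.

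Leaving out 1 array gave 29 to 42 genes for ATRA at 24 h, 2 to 5, 2 to 7 and 0 to 1 for VPA at 6, 24 and 72 h, 1 to 4 and 6 to 16 for the combination at 6 and 24 h, and 5 to 7, 11 to 14 and 8 to 14 for the combination against ATRA at 6, 24 and 72 h. It gave 9 to 16 against VPA at 24 h, 7 to 15 and 2 to 7 for DMSO at 24 and 72 h, and 6 to 22, 0 to 2 and 32 to 44 for the ATRA, VPA and combined effects between times. The lowest of these came without the third DMSO array at 24 h for ATRA (29) and the combination (6) at 24 h, and without the third ATRA array for the combination against ATRA at 72 h (8).

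Replicate numbers 1 to 3 are shared by the groups, but same-numbered arrays did not deviate together: 11 of 51 pairs had a correlation over 0.1, with a mean of -0.01, against 0.01 for other pairs. A replicate block changed the count for DMSO at 72 h against 6 h to 7 and that of the VPA effect between times to 0, and left the others within 1.5 times.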

Other observations

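Regulators of the same genes were measured beside them. Of 7 CDK inhibitors, 1 rose and 1 fell (14.3% each) with ATRA plus VPA at 72 h, where 14.9% of all genes rose and 16.6% fell, so these counts are no more than the share over all genes. CDKN1A, p21, an inhibitor that restrains CDKs and favours DREAM assembly, rose with the combination (1.76 ± 0.25, limma adjusted p = 1.3e-06) and with ATRA (1.36 ± 0.25, adjusted p = 8e-05), and by 2.33 ± 0.22 (adjusted p = 2.5e-09) with ATRA at 24 h. CDKN3, a CDK-associated phosphatase that is itself transcribed late in the cycle, fell with the combination (-0.62 ± 0.09, adjusted p = 3.9e-06) and with ATRA (-0.81 ± 0.09, adjusted p = 6.5e-08). With VPA at 72 h none of the 7 passed in limma, with 2 lower and 0 higher at an unadjusted p under 0.05.

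Of 16 listed genes for DREAM and MuvB subunits, their partners and checkpoint kinases, 12 were measured, with RBBP4 the only MuvB subunit. Of these 12, 6 fell and 1 rose with the combination at 72 h (50% and 8.33%, beside 16.6% and 14.9% of all genes). Among genes for the subunits and their partners, RBL1, TFDP1 (-0.83, limma adjusted p = 1.2e-07) and RBBP4 (-0.48, adjusted p = 0.014) fell with the combination. E2F4 (-0.30, adjusted p = 0.30), E2F5 (0.30, adjusted p = 0.24), RB1 (0.09, adjusted p = 0.57) and RBL2 (0.10, adjusted p = 0.56) did not pass with it. RBL2 fell with ATRA (-0.36, adjusted p = 0.0086). With ATRA 7 fell and 1 rose (58.3% and 8.33%, beside 20.2% and 10.7% of all genes). The checkpoint kinases CHEK2 (-1.04 ± 0.16, adjusted p = 4.1e-06) and CHEK1 (-0.92 ± 0.13, adjusted p = 2e-06) and the pocket protein gene RBL1 (-0.92 ± 0.15, adjusted p = 1.8e-05) led with the combination. With ATRA the leading genes were CHEK2 (-1.06 ± 0.16), TFDP1, an E2F partner (-0.84 ± 0.10), and RBBP4, a MuvB subunit (-0.66 ± 0.15). TFDP2, another E2F partner, rose by 0.89 ± 0.11 with the combination and by 0.37 ± 0.11 with ATRA. With VPA at 72 h none of the 12 passed in limma, with 1 lower and 2 higher at an unadjusted p under 0.05.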
